A study of Mus musculus with 8 samples.

Results

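The Hedgehog pathway genes described here are the ligands Shh and Ihh, the receptor Ptch1, the signal transducer Smo, the transcription factors Gli1, Gli2 and Gli3, and the ligand-binding inhibitor Hhip. They were taken as every probe set to which the platform annotation gives exactly 1 of these 8 symbols. That rule found 10 probe sets for 7 of the genes, among 24965 probe sets in all: 8 of 12488 for the A chip and 2 of 12477 for the B chip, the 2 array types of the series. Hhip was not analysed here, because no probe set carries its symbol.

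Skin of 2 p63 null mouse embryos was compared with skin of 2 wild-type embryos, all at E18.5, shortly before birth, and all from crosses of p63 heterozygous parents. RNA came from whole skin, so epidermis, hair follicles, dermis and the tissue beneath were measured together. Each genotype has 2 arrays of each chip, and the values are linear signals made by the authors with MAS5, an Affymetrix algorithm that condenses the probes of a probe set into 1 number. The series had 2 embryos of each genotype in all, so both chips measured the same embryos and are no separate replicates. The null allele is not described further in the labels, nor are strain and sex of the embryos.

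Hedgehog ligands are secreted proteins that bind Ptch1 on the receiving cell. Ptch1 without ligand holds back Smo, and ligand binding releases Smo, which lets the Gli factors switch on target genes. Ptch1, Gli1 and Hhip are themselves targets, so their transcript levels are widely used as a readout of pathway activity. In embryonic skin Shh is made by the epithelium of the growing hair follicle and acts both on that epithelium and on the dermal cells beneath it. Ihh is best known from cartilage and Dhh, a further ligand, from Schwann cells.

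Of the members that fell in null skin, Ptch1 and Gli2 have a window around the transcription start in the RefSeq promoter table (build GRCm38.p6). The 250 bases before the start are shown for both, 5′ to 3′ on the gene's strand. They were chosen because each gene had a probe set that fell. The Ptch1 stretch lies at chr13:63565736-63565985 and the Gli2 stretch at chr1:119053620-119053869, both on the minus strand. Capitals mark the GC box (GGGCGG or its reverse complement), a motif bound by Sp1-type factors.
Ptch1: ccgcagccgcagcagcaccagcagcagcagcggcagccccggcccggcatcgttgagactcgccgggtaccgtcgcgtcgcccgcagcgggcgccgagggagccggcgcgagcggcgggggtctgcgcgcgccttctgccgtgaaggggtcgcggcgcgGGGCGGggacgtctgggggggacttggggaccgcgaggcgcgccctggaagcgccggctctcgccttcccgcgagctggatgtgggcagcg
Gli2: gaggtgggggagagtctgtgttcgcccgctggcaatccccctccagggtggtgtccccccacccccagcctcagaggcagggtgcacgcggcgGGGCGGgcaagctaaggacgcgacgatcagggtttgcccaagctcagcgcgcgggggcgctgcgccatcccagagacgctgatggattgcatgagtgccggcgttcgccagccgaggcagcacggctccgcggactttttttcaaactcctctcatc
Each holds 1 GC box. The whole windows, 300 bases with the 50 after the start included, contained 76.3% G and C for Ptch1 and 67.3% for Gli2, against a median of 52.7% over the 32851 windows of the table. CpG dinucleotides numbered 47 in the Ptch1 window and 28 in the Gli2 window, with a median of 7 over all windows.

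In all, 6 of the 8 genes had a window (Ihh, Ptch1, Smo, Gli2, Gli3 and Hhip). The consensus Gli site GACCACCCA, searched on both strands, was in 0 of these 6 windows and in 0.253% of all windows. Its shorter core CACCCA, which the consensus contains, was in 0 of the 6 and in 22.2% of all windows. The GC box was in 5 of the 6, Smo being the exception, and in 35.7% of all windows. TATAAA and CCAAT were in 0 of the 6, against 13.6% and 37.4% of all windows. These counts describe the letters of the windows and nothing beyond them.

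The question put to the arrays is which transcripts of late embryonic skin differ in the absence of p63, the factor that Trp63 encodes and that stratified epithelia need. The Trp63 probe set read 61.9 and 46.6 in the null embryos and 379.3 and 347.1 in the wild-type embryos, a log2 fold change of -2.49 (SE 0.18). Where it lies relative to the mutation is not known here. Keratinocyte and follicle transcripts such as Lor and Krt25 of the A chip and Krt15 of the B chip were plainly measured in wild-type skin. The highest-reading A-chip probe set of Krt15 read at most 1.9 on any array, and those of the basal keratins Krt5 and Krt14 at most 15.9. The beta-actin 3'/5' signal ratio, a gauge of RNA integrity and labelling, was 1.27 in both null samples against 1.63 and 1.69 in wild type for the A chip. For the B chip the values were 1.36 and 1.33 in null samples against 1.51 and 1.98 in wild type. It moved with genotype. The Gapdh 3'/5' ratio was 1.25 and 1.45 in null samples against 1.47 and 2.46 in wild type for the A chip. For the B chip it was 1.26 and 1.51 against 1.55 and 2.66, and wild-type array 2 had the highest Gapdh ratio on both chips. The part of either ratio in the results below was not tested. The null array numbered 2 stood apart in an added control transcript, CreX, which read 6420 there and 3334 to 3837 on the other A-chip arrays, and 32512 there and 16966 to 18942 on the other B-chip arrays.

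Of the Hedgehog readout genes Ptch1 and Gli1 were measured, and each had a probe set that was much lower in null skin. Ptch1 was 8.18-fold lower by 1 of its 2 A-chip probe sets and 4.63-fold lower on the B chip. Its other A-chip probe set was 1.27-fold lower and did not pass the test. Gli1 was 5.38-fold lower, a ratio poorly fixed because its null signals were low. The transcription factor Gli2 was 2.47-fold lower. The ligand Shh and the transducer Smo had lower signals in both null embryos than in both wild-type embryos, by smaller amounts that did not pass the test. Ihh and Gli3 gave signals too low to be tested.

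Differences are log2 fold changes, null minus wild type, of log2(signal + offset), with an offset of 12.9 for the A chip and 54.3 for the B chip. The offset steadies low signals and understates their fold changes. Adjusted p-values come from limma, two-sided, with Benjamini-Hochberg adjustment over all probe sets tested on the chip (7453 for A and 7446 for B), and a probe set was called at an adjusted p under 0.05. A probe set was tested when its mean over the 4 arrays of the chip lay above a set level, equal to a signal of about 54.0 for A and 166.9 for B. By this rule 6 of the 8 member probe sets of the A chip and 1 of the 2 of the B chip were tested.

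Among the 6 tested member probe sets of the A chip 3 were lower and 0 higher, where 22.2% of all tested probe sets were lower and 22.1% higher. Over the alternative settings the log2 fold change of Shh lay between -0.66 and -0.35 and that of Smo between -0.59 and -0.28. The lowest values came without null replicate 2, the array with the high CreX signal, a fit that leaves 1 null array. On the B chip the 1 member tested was lower, where 14.9% of all tested probe sets were lower and 14.5% higher. Gli1, 1 of the 3, read under the level for testing in both null embryos and was tested through its wild-type signal, so its call was partly fixed by the filter. Of the other 5 A-chip probe sets 2 were lower, both null arrays lay below both wild-type arrays for 5, and the median log2 fold change was -0.51. With Gli1 included, the 2 null arrays lay below the 2 wild-type arrays for all 6 tested A-chip member probe sets, against 36.2% of tested probe sets. Their median log2 fold change was -0.85, beside 0.02 over all tested probe sets. The 6 stand for 5 genes, because Ptch1 has 2 A-chip probe sets, and the order of Gli1 was partly fixed by the filter. On the B chip the same order held for the 1 member tested, against 31.7%. With 2 arrays against 2, an exact permutation test of a single probe set cannot give a two-sided p below 0.333, so the calls rest on the variance that limma pools over probe sets. No label says how far the 2 embryos of a genotype are independent beyond being separate embryos.

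**Figure D1:**
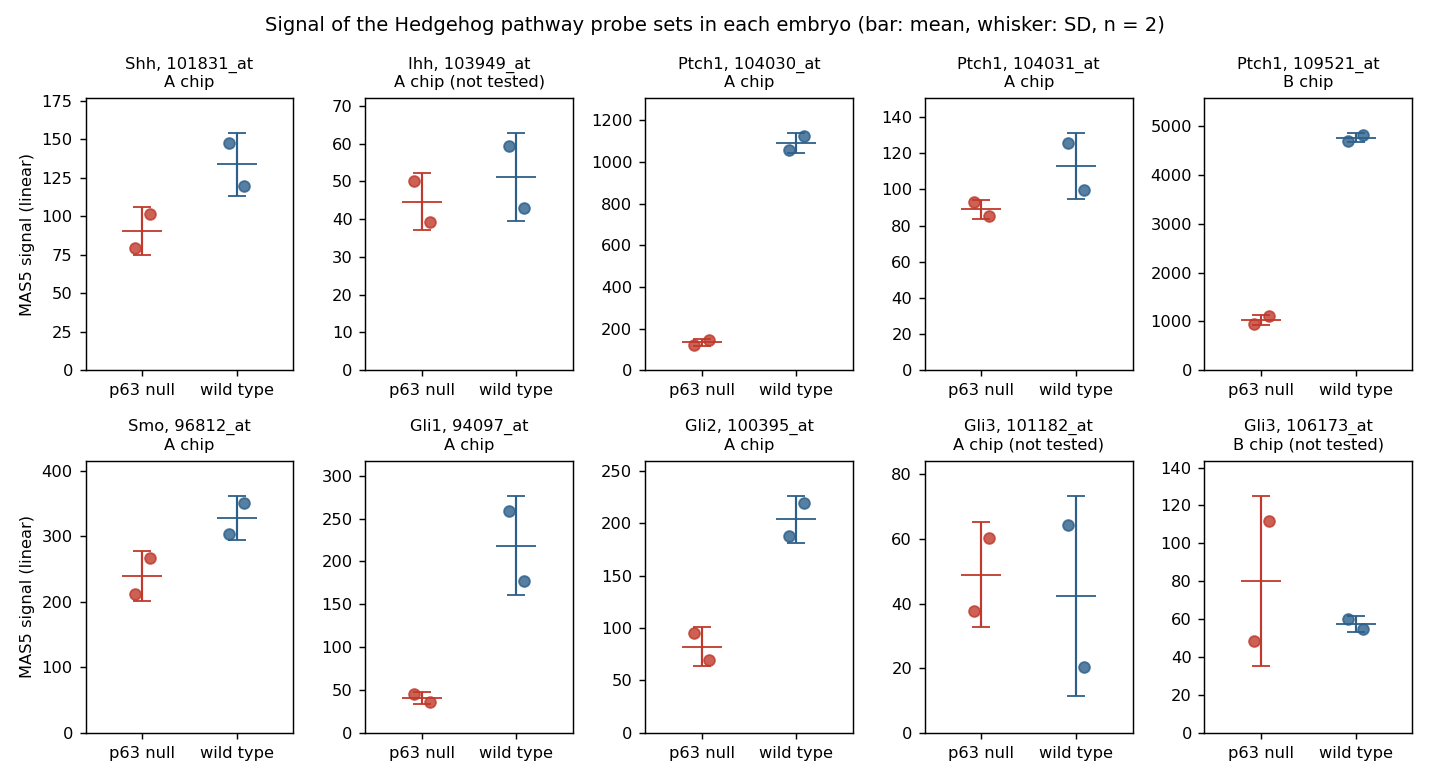
MAS5 signal (linear, y axis from 0) of each Hedgehog pathway probe set in the 2 p63 null and 2 wild-type embryos; points are embryos, the horizontal bar is the mean and the whisker the SD. Ptch1 104030_at read 121.1 and 145.9 in null skin against 1058.9 and 1124.0 in wild type, while the groups overlap for Ihh and for both Gli3 probe sets.

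The ligands come first in the pathway. Shh (101831_at, A chip) read 79.2 and 101.6 in the null embryos, against 147.8 and 119.3 in the wild-type embryos. Both null values were below both wild-type values, and the gap between the nearest pair was smaller than the spread within either genotype. The log2 fold change was -0.51 (SE 0.20, 95% interval -0.96 to -0.05), with a limma adjusted p of 0.0711. Without null replicate 2 it was -0.66 with an adjusted p of 0.0448, the only one of 11 alternatives under which Shh passed, and over those alternatives the adjusted p lay between 0.0448 and 0.314. Shh is also an entry of the hair follicle marker list used below.

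Ihh (103949_at, A chip) read 50 and 39.3 in null skin and 59.3 and 43.0 in wild-type skin. The genotypes overlapped, and the mean of the probe set was under the level for testing. In a fit without that filter the log2 fold change was -0.15 (SE 0.26, 95% interval -0.79 to 0.49), an interval that includes changes either way. Defining markers of cartilage, the tissue Ihh is best known from, were also under the level for testing: Col2a1 read 37.1 and 45.5 in null skin and 51.8 and 25.1 in wild type, Acan 44.5 and 30.0 against 46.8 and 58.7, and Col10a1 31.2 and 15.3 against 21.8 and 16.0. Of the 17 cartilage and bone genes on the A chip 3 were tested and 0 were called by limma. The summed signal of the list, which holds Ihh itself, was 747.3 and 767.2 in null skin against 865.8 and 678.7 in wild type.

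Ptch1 was measured by 3 probe sets. The A-chip probe set 104030_at read 121.1 and 145.9 in the null embryos and 1058.9 and 1124.0 in the wild-type embryos, means of 134 ± 17.5 and 1091 ± 46.0 (SD, n = 2 each). The genotypes were far apart relative to the spread within each. The ratio of means was 8.18-fold lower in null skin, and limma gave a log2 fold change of -2.92 (SE 0.14) with an adjusted p of 6.68e-07.

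On the B chip Ptch1 109521_at read 953.8 and 1104.0 in null skin and 4697.9 and 4823.6 in wild-type skin. Here too the genotypes were widely separated, and the null embryos kept a signal about 4.63-fold lower than wild type. Limma gave a log2 fold change of -2.16 (SE 0.13) with an adjusted p of 4.27e-05. Both of these Ptch1 falls passed the threshold under all 12 alternative settings run for them, at -3.04 to -2.62 for the A-chip probe set and -2.26 to -2.05 for that of the B chip.

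The remaining Ptch1 probe set, 104031_at on the A chip, gave a different reading. It read 92.8 and 85.3 in the null embryos and 125.6 and 99.8 in the wild-type embryos. The order of the genotypes was the same as for 104030_at, but the log2 fold change was -0.29 (SE 0.20, 95% interval -0.74 to 0.15) and the limma adjusted p 0.253, and it passed under 0 of 11 alternatives. The change measured by 104030_at minus that measured by 104031_at was -2.63 on the log2 scale, with an exact permutation p of 0.333, the smallest that 2 arrays against 2 allow. Which part of the Ptch1 transcript each probe set covers is not known here, and why they differ was not tested.

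Smo, the membrane protein that Ptch1 restrains, read 212.1 and 266.3 in null skin and 303.6 and 351.1 in wild-type skin (96812_at, A chip). The null values were again both lower, by a margin smaller than the difference between embryos of a genotype. The log2 fold change was -0.44 (SE 0.16, 95% interval -0.80 to -0.07), just short of the threshold at a limma adjusted p of 0.0519. Smo passed without null replicate 2 (log2 fold change -0.59, adjusted p = 0.0184) and with the replicate number as a block (adjusted p = 0.0338), 2 of 12 alternatives.

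Gli1, an activator whose own transcription depends on Hedgehog signalling, read 45.6 and 35.5 in the null embryos and 259.2 and 177.5 in the wild-type embryos (94097_at, A chip). The 2 wild-type embryos differed from each other more than the null embryos did, and the lower of them was still well above both null values. The log2 fold change was -2.10 (SE 0.23, adjusted p = 0.000119 by limma), with means 5.38-fold apart. Both null signals were under the level used for testing, so Gli1 entered the test through its wild-type signal, and the true ratio is poorly fixed at its low end.

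Gli2, the main activator downstream of Smo in mouse skin, read 95.3 and 69.4 in null skin and 187.8 and 219.2 in wild-type skin (100395_at, A chip). The genotypes did not overlap, and the gap between them was wider than the difference between embryos of a genotype. Means were 82.4 ± 18.3 and 204 ± 22.2 (SD, n = 2 each), 2.47-fold lower in the null, and the log2 fold change was -1.19 (SE 0.20, adjusted p = 0.00131 by limma). Gli1 and Gli2 passed under all 11 alternatives in which they were tested, with ranges of -2.35 to -1.53 and -1.39 to -0.93. Both fell below the level for testing when that level was raised to the 60th percentile.

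Gli3, which acts mostly as a repressor in the absence of ligand, gave no usable comparison. On the A chip it read 37.6 and 60.4 in null skin and 64.2 and 20.5 in wild-type skin, and on the B chip 48.5 and 111.8 against 60.3 and 54.6. The genotypes overlapped on both chips, and both probe sets stayed under the level for testing. Without the filter the log2 fold changes were 0.26 (95% interval -0.81 to 1.33) and 0.23 (95% interval -0.50 to 0.95). The A-chip value changed sign with the embryo left out, at 0.87 with wild-type replicate 1 left out and -0.34 without wild-type replicate 2.

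Beyond the members, 75 genes of the pathway were listed by role, 61 of which had a probe set. On the A chip 6 of 28 tested genes were lower and 3 higher, where 22.8% of all tested genes were lower and 22.4% higher. On the B chip 4 of 22 were lower and 1 higher, where 16% of all tested genes were lower and 16.1% higher. The median log2 fold changes were 0.05 and -0.01, beside 0.01 and 0.04 over all tested genes. The share of genes that fell was close to the background for both chips, and the share that rose was below it, on counts of 3 and 1. Mycn, 1 of the 6 A-chip genes that fell, was tested through its wild-type signal.

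**Figure D2:**
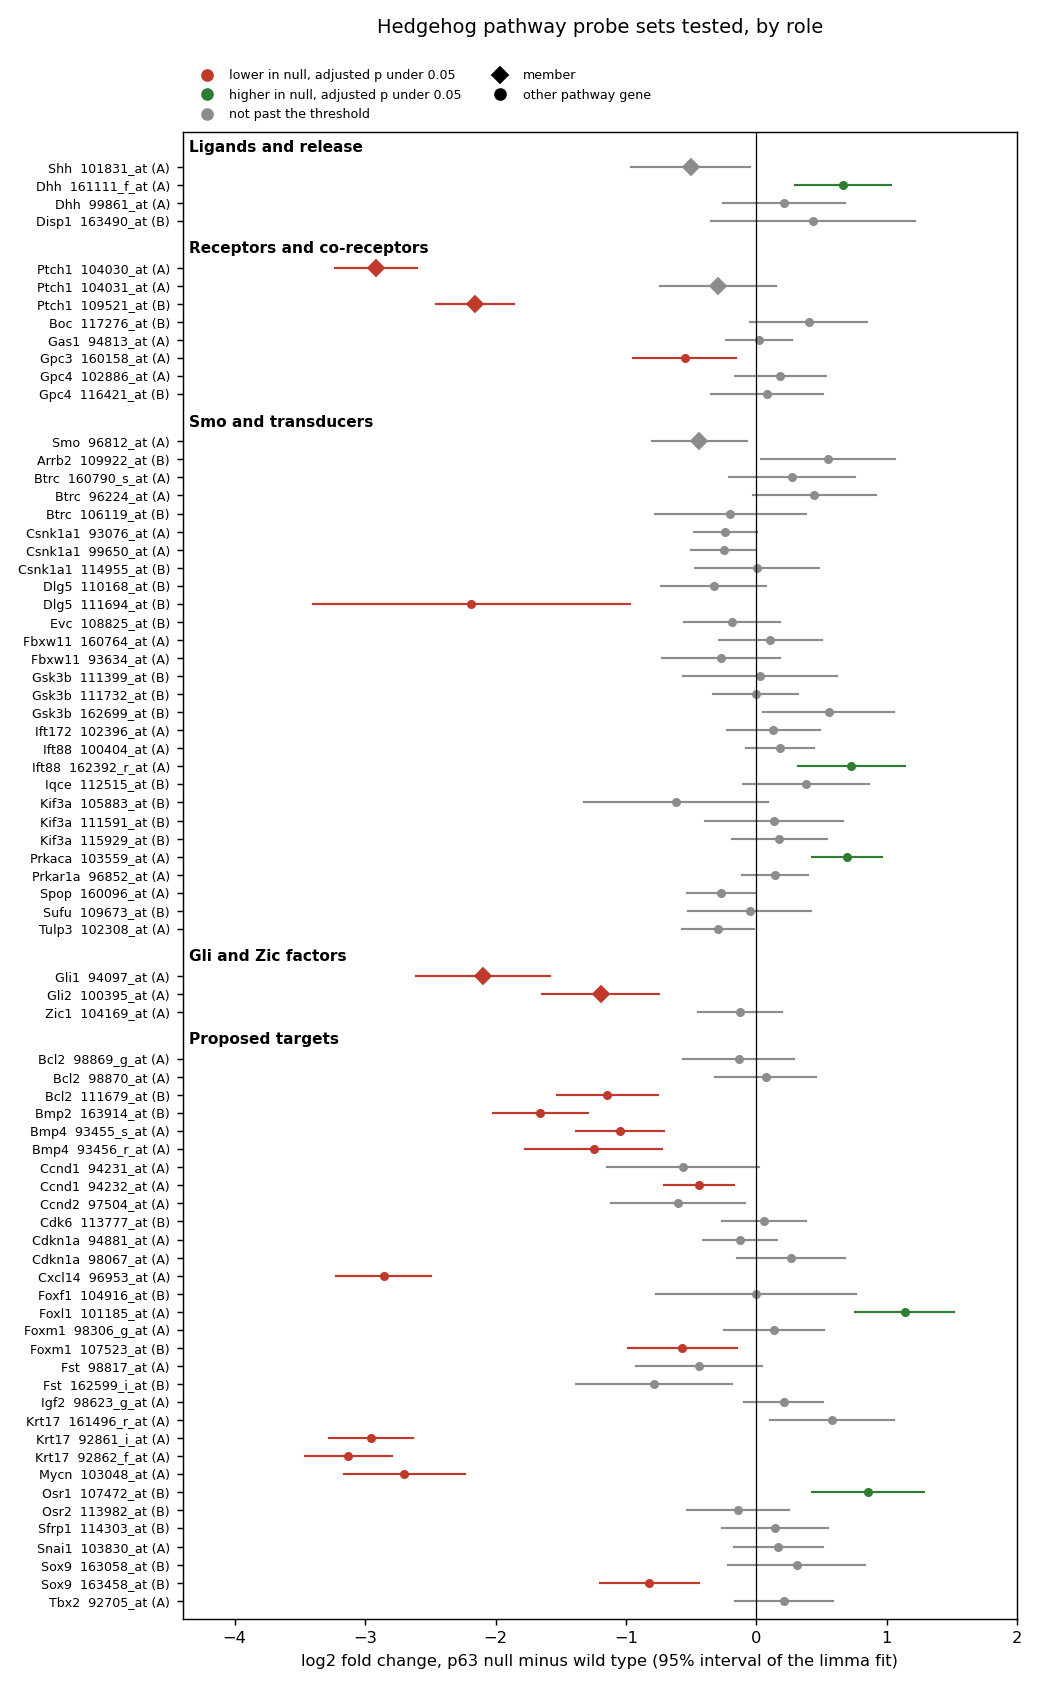
Log2 fold change (null minus wild type) of each tested Hedgehog pathway probe set with its 95% interval from limma, grouped by role; diamonds are the members, circles the other listed genes, and colour marks the call. Ptch1, Gli1 and Gli2 stand left of 0 with Cxcl14, Mycn and 2 Krt17 probe sets, while the co-receptors Gas1 and Boc and the inhibitor Sufu have intervals that include 0.

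Among the other ligands and release factors, Dhh gave readings that disagreed. Its probe set 161111_f_at, of a type that can bind several members of a gene family, read 263.2 and 243.2 in null skin against 170.6 and 141.0 in wild type, and rose by 0.66 on the log2 scale (limma adjusted p = 0.00968). Leaving out wild-type replicate 2 took that call away (adjusted p = 0.0699). The Dhh probe set 99861_at read 131.2 and 130.9 against 134.3 and 91.6, a difference of 0.21 on the log2 scale (adjusted p = 0.427), and Dhh 161588_r_at read at most 5.0 on any array. Disp1, which releases lipid-bound ligand from producing cells, read 341.6 and 744.6 in null skin and 302.3 and 430.7 in wild type on the B chip (log2 fold change 0.44, adjusted p = 0.358). Without null replicate 1 the Disp1 value was 0.94 and passed (adjusted p = 0.0121), and its further probe set was not tested. Scube1, a secreted protein of a family that helps ligand release, was under the level for testing at 100.8 and 175.6 against 148.7 and 141.4.

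The co-receptors that present ligand to Ptch1 were not called in either direction. Gas1 read 1706.3 and 1883.5 in null skin and 1761.1 and 1778.1 in wild-type skin, a log2 fold change of 0.02 (95% interval -0.23 to 0.27). Boc on the B chip read 426.0 and 547.1 against 369.4 and 337.5, a log2 fold change of 0.40 (95% interval -0.05 to 0.85, limma adjusted p = 0.156). Cdon, a relative of Boc, and Lrp2 were under the level for testing.

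Of the glypicans, cell-surface proteoglycans, Gpc4 had log2 fold changes of 0.18 and 0.08 on the 2 chips and was not called. Gpc3, which binds Hedgehog ligands in competition with Ptch1, read 1750.8 and 1152.6 in null skin and 2107.7 and 2068.2 in wild type. It fell by 0.55 on the log2 scale (limma adjusted p = 0.0306). This call did not hold without wild-type replicate 1, wild-type replicate 2 or null replicate 2 (adjusted p = 0.0791, 0.0752 and 0.0721), with no filter (0.0905) and with no variance trend (0.0738). The log2 fold change was -0.25 without null replicate 2, which held the lowest Gpc3 signal.

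Of the 9 tested intracellular transducer genes of the A chip 1 was higher and 0 lower, and on the B chip 0 of 9 were called, beside shares over all tested genes of 22.4% higher and 22.8% lower for A, and 16.1% higher and 16% lower for B. Prkaca, the catalytic subunit of the protein kinase A that restrains Gli factors, read 1079.4 and 1079.2 in null skin and 707.1 and 618.6 in wild type, and rose by 0.70 (limma adjusted p = 0.0016). Sufu, which binds and holds Gli proteins, read 443.9 and 563.4 against 598.3 and 451.8 on the B chip, a log2 fold change of -0.05 (95% interval -0.52 to 0.42).

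Some transducers had a called probe set beside another that was not called. The ciliary transport protein Ift88 rose by 0.73 with 162392_r_at (adjusted p = 0.0105, and 0.0806 without wild-type replicate 2), but its probe set 100404_at had a value of 0.18 (adjusted p = 0.23). Dlg5, a scaffold protein that binds Smo, read 306.6 and 45.7 in null skin and 752.9 and 872.3 in wild type with 111694_at on the B chip, a log2 fold change of -2.19 (adjusted p = 0.0194). That call was lost with no filter (0.0554) and without wild-type replicate 2 (0.0583), and the other Dlg5 probe set, 110168_at, had a value of -0.33 (adjusted p = 0.189). Gsk3b, for a kinase that marks Gli proteins for processing, had no called probe set. Its log2 fold changes were 0.55 for 162699_at (limma adjusted p = 0.0921), 0.03 for 111399_at (0.944) and -0.004 for 111732_at (0.985). Without null replicate 1 that of 162699_at was 0.73. Zic1, a zinc finger factor related to the Gli proteins, had a value of -0.13 (adjusted p = 0.494), and Zic2 was under the level for testing.

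Proposed Hedgehog targets went both ways. With the members left out, 5 of 14 tested target genes of the A chip fell and 1 rose. On the B chip 4 of 10 fell and 1 rose. Over all tested genes 22.8% fell and 22.4% rose for A, and 16% and 16.1% for B. The median log2 fold changes of the tested target genes were -0.28 and -0.36. Mycn, 1 of the 5, was tested through its wild-type signal, so its fall was partly fixed by the filter. Bcl2 and Foxm1 were tested on both chips, so the counts of the chips are not of separate genes. Proposed targets answer to other signals as well, and Krt17, Sox9 and Bmp4 also stand in the marker lists of follicle or dermal papilla.

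Mycn, a driver of progenitor proliferation, read 22 and 18.4 in null skin against 199.6 and 204.6 in wild type, a log2 fold change of -2.70 (adjusted p = 1.39e-05 by limma). Both null Mycn signals were under the level for testing, so Mycn was tested through wild type and the size of its fall is poorly fixed. A further Mycn probe set, 161417_r_at, read at most 11.8 on any array. Cxcl14, a chemokine of skin epithelium, read 67.1 and 61.6 in the null embryos and 503.6 and 594.1 in the wild-type embryos, a log2 fold change of -2.86 (adjusted p = 1.88e-06). Krt17, a keratin of hair follicles and other appendages, read 143.5 and 140.7 against 1068.6 and 1325.2 with 92861_i_at, a log2 fold change of -2.96 (adjusted p = 7.21e-07). For each of these 3 genes the null values were a small part of the wild-type values in both embryos. The third Krt17 probe set, 161496_r_at, went the other way at low signal, 82.2 and 102.0 in null skin and 59.2 and 55 in wild type (log2 fold change 0.58, adjusted p = 0.0509). It passed as higher with the offset at the 40th percentile (adjusted p = 0.0477) and with no variance trend (0.0235).

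The growth factors Bmp2 and Bmp4, which act between follicle epithelium and dermis, were also lower. Bmp2 on the B chip read 651.6 and 787.4 in null skin and 2589.2 and 2185.3 in wild type (log2 fold change -1.66, adjusted p = 0.000376 by limma), while its A-chip probe sets were under the level for testing. Bmp4 93455_s_at read 137.9 and 152.5 against 306.6 and 321.3 (log2 fold change -1.05, adjusted p = 0.000541). The survival gene Bcl2 differed in size between probe sets. On the B chip it read 780.7 and 709.1 in null skin against 1498.7 and 1946.5 in wild type, a log2 fold change of -1.14 (adjusted p = 0.00262). Its tested A-chip probe sets 98870_at and 98869_g_at were not called, at 0.07 (adjusted p = 0.759) and -0.14 (0.586). Bcl2 98868_at on the A chip was under the level for testing, at 16.4 and 24.1 in null skin against 31.9 and 35.3 in wild type.

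Against these falls, Foxl1, a mesenchymal forkhead factor that Gli proteins induce in the gut of mice, read 260.3 and 262.7 in null skin and 125.0 and 100.2 in wild type and rose by 1.14 (limma adjusted p = 0.000686). Osr1, a mesenchymal zinc finger factor, rose on the B chip by 0.86 (adjusted p = 0.0132, and 0.0717 without wild-type replicate 2). The smaller falls among the targets were those of the cyclin Ccnd1 (94232_at, log2 fold change -0.44), Sox9 (163458_at, -0.82) and Foxm1 (107523_at, -0.57). The Ccnd1 call was lost without either wild-type embryo (adjusted p = 0.0783 and 0.0646), that of Sox9 without wild-type replicate 2 (0.0901), and that of Foxm1 under 9 alternatives (adjusted p from 0.0503 to 0.31). Further tested probe sets of these genes were not called: the log2 fold changes were 0.31 for Sox9 163058_at (adjusted p = 0.331), 0.13 for Foxm1 98306_g_at (0.55) and -0.57 for Ccnd1 94231_at (0.105). Foxm1 98305_at was under the level for testing, at 9.5 and 8.8 in null skin against 36.6 and 44.6 in wild type. Without the filter its log2 fold change was -1.27.

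Epithelial marker genes fell beside the Hedgehog genes. The counts of marker genes stand against 22.8% lower and 22.4% higher over all tested genes of the A chip, and 16% lower and 16.1% higher for the B chip. Some of them read under the level for testing in both embryos of the genotype in which they were lower, so they were tested through the other genotype and had to differ. On the A chip 8 of 9 tested hair follicle genes were lower and 0 higher, at a median log2 fold change of -2.58. The gene not called was Shh, itself a Hedgehog member and part of the median and the sums. The summed signal of the list was 1289.7 and 1184.8 in null skin against 5641.8 and 5735.9 in wild type. The inner root sheath keratin Krt25 read 4.3 and 5.2 against 288.7 and 308.9, and the follicle transcription factor Dlx3 had a log2 fold change of -3.65. Of the 8 that fell, 4 (Krt25, Krt27, Dlx3 and Gata3) were under the level in null skin. On the B chip all 6 tested follicle genes fell, with a median of -1.26, led by Krt73 (-2.23) and Gata3 (-2.19), of which Gata3 was under the level there too. In whole skin, fewer cells of a type and less RNA per cell cannot be told apart.

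Basal keratinocyte genes fell in 7 of 8 tested cases on the A chip, led by Perp (-4.19) and Sfn (-3.17). Their summed signals were 1423.2 and 1190.8 in null skin against 10335 and 10609 in wild type. Both the count and the sums include Trp63, the gene by which the genotypes differ, so its fall is no marker of a cell type. All 8 tested suprabasal genes fell, led by Lor (-5.42) and Ivl (-4.53), with sums of 3365.4 and 3951.2 in null skin against 32581 and 31060 in wild type, and 3 of the 8 (Ivl, Dsc1 and Serpinb5) were under the level in null skin. The smaller B-chip lists held 4 basal and 3 suprabasal tested genes, all of which fell, led by Krt15 (-3.71) and Trim29 (-3.10) and by Dsc1 (-4.08) and Dsg1a (-2.40), the last of them under the level in null skin. The summed signals of the A-chip epithelial lists were lower by more than the spread between embryos, and the part of their fall in the Hedgehog values was not tested.

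The dermal papilla is the dermal cell cluster at the base of the follicle that receives Shh. Of its 11 tested A-chip genes 5 were lower and 1 was higher, at a median of -0.32, with sums of 2394.4 and 2516.0 in null skin against 3704.0 and 3624.7 in wild type. The largest falls were those of Lepr (-2.62) and of Prdm1 (-2.51), both also expressed by other cells, and 2 of the 5 genes, Prdm1 and Cxcr4, were under the level in null skin. Among its defining genes Sox18, which blood vessels also express, had a log2 fold change of -0.18 (limma adjusted p = 0.3), and Sox2 read 44.2 and 32.2 against 73.9 and 66.5, under the level for testing. The A-chip gene that rose was Crabp1, by 0.75 on the log2 scale (limma adjusted p = 0.00373). On the B chip all 3 tested genes fell, Wif1 by 3.32, Bmp7 by 1.70 and Trps1 by 1.30 on the log2 scale. Trps1 is also in the hair follicle list and is counted there too.

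Of 15 general dermal fibroblast genes tested on the A chip 6 rose and 0 fell, with a median of 0.30 and sums of 59027 and 70991 in null skin against 51464 and 49363 in wild type, and Pdgfrb and Fbln1 led with 0.94 and 0.75. On the same chip all 17 tested muscle genes rose (median 1.26), as did 9 of 10 fat genes (1.34), 7 of 9 vessel genes (0.67) and all 10 leukocyte genes (1.42), and none of these fell. Fabp4 of fat and Pecam1 and Kdr of vessels were not called. Each array was rescaled to a common 2% trimmed mean, so a rise here is relative to the signal of the whole array. The part of that scaling in these values was not tested. The rising genes Ucp1, Plin4 and Ptprc were under the level in wild-type skin. The genes with the largest rises were Myh1 (1.82) and Atp2a1 (1.79) of muscle, Ucp1 (5.42) and Cidea (3.77) of brown fat, Tie1 (1.03) and Eng (0.96) of vessels, and C1qa (2.09) and Ctss (1.98) of macrophages. The muscle actin Acta1 rose by 0.62, a call that did not hold without wild-type replicate 1 (adjusted p = 0.0688) or wild-type replicate 2 (0.102). The endothelial genes Eng (0.77) and Esam (0.65) also rose on the B chip, while Flt1 had a value of -0.03 (adjusted p = 0.957). Neither rise passed with wild-type replicate 1 left out (adjusted p = 0.102 for Eng and 0.0813 for Esam) or replicate 2 (0.079 and 0.0536). Retn, Sox6, Dct and Sox10, which stood there for fat, cartilage, pigment cells and Schwann cells, were not called. Ucp1 read 1859.1 and 2022.6 against 33.8 and 31.7, and the leukocyte gene Ptprc 101.0 and 85.5 against 50.6 and 47.7. The Ptprc call was lost with no filter (adjusted p = 0.0511), with wild-type replicate 2 left out (0.067) and with null replicate 1 left out (0.0906). In the list of Schwann cells and melanocytes, which holds Dhh, 2 of 8 tested A-chip genes rose and 3 fell, with a median of -0.22, and Erbb3 (-1.09) and Dct (-0.90) led.

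**Figure D3:**
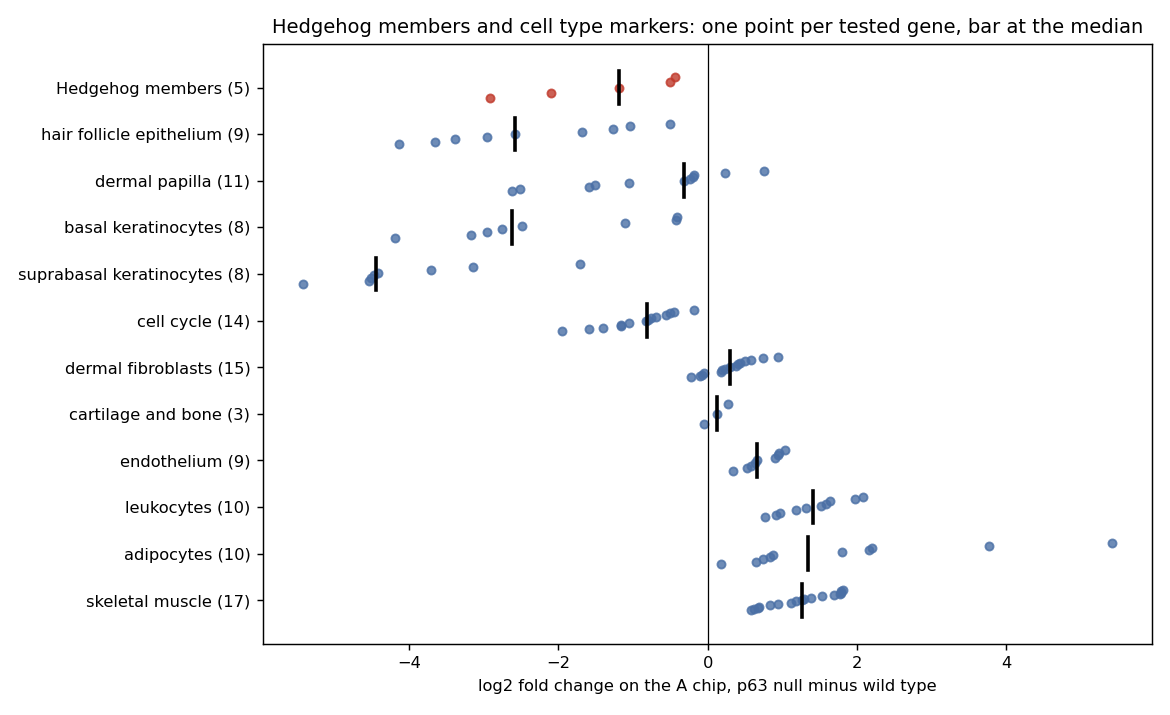
Log2 fold change (null minus wild type, x axis) on the A chip of each tested gene of the Hedgehog members and of 11 marker lists, each gene by its brightest tested probe set; the black bar is the list median and the number of genes stands in brackets. The 5 Hedgehog genes lie between -2.92 and -0.44, lists of epithelial cells lie mostly left of 0, and those of vessels, leukocytes, fat and muscle lie right of it.

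Cell cycle genes fell in 12 of 14 tested cases on the A chip, with a median of -0.82, led by Prim1 (-1.95), which was under the level in null skin, and Bub1 (-1.59). Simple epithelium genes fell in 3 of 6, with a median of -1.28, led by Spint1 (-3.92) and Esrp1 (-3.65), both under the level in null skin, so that the sizes of these falls are poorly fixed. The one B-chip Spint1 probe set had a log2 fold change of 0.86 (limma adjusted p = 0.0822), the opposite direction, and passed as higher with the replicate block (0.0401) and without wild-type replicate 2 (1.26, adjusted p = 0.0466).

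Profiles nearest to those of the called members were found by the distance between log2 signals, each centred over the 4 arrays of a chip, so that small distances mean the same rise and fall from array to array. For Ptch1 104030_at the nearest were Crybg1, Klk8, a protease of the epidermis, and Esyt3, at distances of 0.11, 0.11 and 0.14. Klk8, for example, read 77.3 and 99.3 in null skin and 676.0 and 725.5 in wild-type skin. For Ptch1 109521_at on the B chip they were Lrrc1, Prom2 and Stfa3, at 0.11, 0.12 and 0.16.

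For Gli1 the nearest were Crabp2, a retinoic acid binding protein, Gjb5, a connexin of the epidermis, and the surface protein Cd24a. They stood farther off, at 0.32, 0.35 and 0.38, since none shared the spread between the wild-type embryos that Gli1 showed. For Gli2 the nearest were Pafah2, Mki67, a marker of proliferating cells, and Tnfaip8, at 0.02, 0.05 and 0.05. Mki67 read 423.9 and 313.3 in null skin and 774.4 and 884.4 in wild type. With 4 arrays in 2 groups these likenesses mostly restate the size of the genotype difference and the small differences between embryos, and they say nothing of shared function.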

How the data were processed

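Total RNA of whole skin was extracted with TriZol, cleaned with RNeasy and biotin-labelled, per the labels' protocols, and 8 arrays were run. The authors deposited linear intensities, which the submitters' processing notes credit to MAS5. The sources used here give neither its version nor detection calls or a genome build. On each chip the 4 arrays had nearly equal 2% trimmed mean intensities as deposited (250.1 to 250.2 for A and 500.1 for B), and the number of arrays limits the precision.

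Each array was rescaled to the common 2% trimmed mean, the 20th percentile of the chip was added as an offset, and log2 was taken. Per chip, 66 controls were dropped, and probe sets with a mean log2 value above the 40th percentile were tested. Null and wild type were compared on each chip apart with limma 3.58.1 (lmFit, eBayes with an intensity trend) in R 4.3.3, with Benjamini-Hochberg adjustment and a threshold of 0.05. The fit was tested on simulated data. Groups come from the sample titles. The replicate numbers tie no null embryo to a wild-type embryo, so no block was used. Where a gene list is counted, each gene is read by its tested probe set with the highest mean. Names come from the platform annotation, which can be old, and promoter windows from RefSeq.

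The members, lists and settings were chosen with earlier results of these data known. The genes named are Trp63, all member probe sets, every listed ligand, release, receptor, co-receptor and Gli-family gene with a probe set, transducers and targets called with an absolute log2 fold change of at least 1 (for transducers, the 4 with the lowest p), the 2 largest changes and the defining genes of each marker list, and the 3 nearest profiles of each called member. Sufu, Trps1, Foxm1, Sox9, Osr1, Ccnd1 and the disagreeing probe sets were named after their values were seen. Alternatives were median centring, quantile normalization, offsets at the 10th and 40th percentiles, no filter or one at the 60th percentile, no variance trend, the replicate block, a mean over a gene's probe sets, and each array left out.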

Additional observations from a re-analysis of the deposited data

How the results depend on the processing

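Of 116 recomputed values of member probe sets, 109 kept their direction or size and their side of the threshold, 3 newly passed it (Shh and Smo without null replicate 2, Smo with the replicate block) and the 4 for Gli3 moved by more than their SE. The A-chip member count, 3 lower, was 1 with the filter at the 60th percentile, because fewer members were tested, and lay between 3 and 5 with an array left out. Over all tested probe sets, with an array left out, A-chip calls numbered 1078 to 1574 higher (lowest without wild-type replicate 2) and 1119 to 1729 lower, against 1646 and 1653 with all arrays. B-chip calls numbered 546 to 1186 higher and 557 to 1291 lower, against 1083 and 1106. The low B-chip values came without wild-type replicate 1 (563 and 576) or wild-type replicate 2 (546 and 557), which were refitted with fewer samples. Calls of the other pathway genes on the B chip ranged from 1 to 2 higher (2 without null replicate 1, Disp1 being the addition) and from 2 to 5 lower (2 without wild-type replicate 2). Same-numbered null and wild-type arrays did not deviate together (correlation of deviations 0.04 for A, -0.05 for B). With the replicate block 4 A-chip and 1 B-chip member probe sets were lower, and of all probe sets this block called 1674 higher and 1694 lower for A, 1229 higher and 1182 lower for B. Members with signals near the level for testing, Ihh and Gli3 above all, cannot be resolved with these arrays, and detection calls were not used here.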
